A study of Mus musculus with 13 samples.

Results

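Untreated bone marrow-derived macrophages carrying an shRNA labelled shJunB were set against untreated macrophages carrying a scramble shRNA, by chromatin immunoprecipitation and sequencing of histone H3 acetylated at lysine 27 (H3K27ac). Both libraries came from C57BL/6 mouse marrow cultured in L929-conditioned medium and taken on day 7 of differentiation, neither group received a cytokine, and each group had 1 library. They are 2 of 13 libraries. The others used below are shJunB and scramble macrophages given interferon-γ (IFNγ, 100 ng/ml) for 4 h, shCEBP-beta macrophages without and with that treatment, and, from a cytokine experiment whose labels name no shRNA, macrophages given IFNγ (100 ng/ml) for 4 h, macrophages given interleukin-4 (IL-4, 10 ng/ml) for 4 h and untreated macrophages. The labels give neither the hairpin sequence nor how far JunB fell, and they do not say how many mice or cultures were used. Islands, the stretches called enriched over a control library, were merged wherever an island of one library overlapped an island of the other by at least 1 bp, which gave 30672 regions, against 39569 when islands of all 13 libraries were merged. Read totals were worked out from the deposited fold ratios, as the smallest that fit all 13 libraries. By these totals the shJunB library held 24.2 M reads with 72.0% of them in 28687 islands, and the scramble library 22.0 M reads with 68.6% in 31462 islands. Over the 13 libraries, totals ran from 14.3 to 37.4 M reads.

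JunB is a basic leucine zipper protein of the AP-1 family. It binds DNA as a dimer, with Fos, Fos-like, Batf or other Jun proteins, at the sequence TGANTCA. In macrophages AP-1 acts beside the lineage factors PU.1 and C/EBP at enhancers. H3K27ac marks active promoters and enhancers, so reads over a region are taken as the level of the mark there, not as transcription. An shRNA acts on the messenger RNA, and acetylation at Junb itself is therefore no measure of the knockdown.

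The sequences that bear on the comparison are the promoter of Junb, as the targeted gene, and promoters with an AP-1 motif. Each is the 250 bases before an annotated start, 5′ to 3′, from RefSeq on GRCm38.p6, and capitals mark TGANTCA, which reads the same on the other strand apart from its middle base. The motif was not found in the Junb window (chr8:84978749-84978998, minus strand). Among the 20 genes with the most extreme ratios below, 13 had a promoter in the table and of those only Syt2 (chr1:134709050-134709299, plus strand) held the motif, starting 183 bases before the start. The other 5 promoters shown were chosen after their values were seen, from genes higher in shJunB whose start lay in a called region: Sspn (chr6:145931623-145931872, plus strand), Vash2 (chr1:190978999-190979248, minus strand), Pde6b (chr5:108388123-108388372, plus strand), Cldn4 (chr5:134946935-134947184, minus strand) and F3 (chr3:121723287-121723536, plus strand). The motif starts 81 bases before the start in Sspn, 243 in Vash2 and 57 in Pde6b, and Cldn4 and F3 each hold it at 2 places.
Junb: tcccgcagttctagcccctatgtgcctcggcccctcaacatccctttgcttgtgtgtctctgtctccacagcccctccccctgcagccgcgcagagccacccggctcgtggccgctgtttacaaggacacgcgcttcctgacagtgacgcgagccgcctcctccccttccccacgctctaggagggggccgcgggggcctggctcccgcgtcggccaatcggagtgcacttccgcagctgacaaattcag
Syt2: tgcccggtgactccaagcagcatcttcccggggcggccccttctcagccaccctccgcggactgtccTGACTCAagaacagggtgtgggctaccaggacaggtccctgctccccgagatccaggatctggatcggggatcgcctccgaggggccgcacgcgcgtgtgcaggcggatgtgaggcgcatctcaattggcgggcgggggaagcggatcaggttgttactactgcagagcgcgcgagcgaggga
Sspn: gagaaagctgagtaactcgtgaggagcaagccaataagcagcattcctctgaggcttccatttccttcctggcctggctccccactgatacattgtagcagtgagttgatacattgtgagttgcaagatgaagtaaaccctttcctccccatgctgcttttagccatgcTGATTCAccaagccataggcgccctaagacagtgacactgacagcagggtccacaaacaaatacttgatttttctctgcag
Vash2: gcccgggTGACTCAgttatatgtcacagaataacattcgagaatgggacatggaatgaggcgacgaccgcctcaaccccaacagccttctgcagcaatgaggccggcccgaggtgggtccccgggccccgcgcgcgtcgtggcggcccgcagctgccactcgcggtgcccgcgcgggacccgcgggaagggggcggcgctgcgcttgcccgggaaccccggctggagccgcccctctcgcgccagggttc
Pde6b: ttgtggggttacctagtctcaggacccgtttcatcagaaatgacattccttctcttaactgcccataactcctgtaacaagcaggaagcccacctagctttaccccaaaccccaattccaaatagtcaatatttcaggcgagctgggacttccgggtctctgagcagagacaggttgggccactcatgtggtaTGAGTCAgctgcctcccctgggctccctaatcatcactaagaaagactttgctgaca
Cldn4: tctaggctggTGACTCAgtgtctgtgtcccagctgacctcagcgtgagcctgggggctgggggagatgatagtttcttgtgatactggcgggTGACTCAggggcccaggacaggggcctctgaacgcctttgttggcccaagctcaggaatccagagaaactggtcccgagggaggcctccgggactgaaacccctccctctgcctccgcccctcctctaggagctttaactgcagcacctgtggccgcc
F3: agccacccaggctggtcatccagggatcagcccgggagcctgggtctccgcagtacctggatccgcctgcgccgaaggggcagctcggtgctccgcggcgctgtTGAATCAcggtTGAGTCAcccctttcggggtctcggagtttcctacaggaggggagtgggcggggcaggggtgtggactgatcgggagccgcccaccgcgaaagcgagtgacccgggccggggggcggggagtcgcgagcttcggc

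Most H3K27ac regions had a similar level in both libraries. Reads were divided by a size factor per library (median of ratios over regions called in both). A region counted as higher or lower in shJunB when normalised reads differed at least 2-fold and the higher library had at least 50. With 1 library a group there is no test, and a count past 2-fold describes these libraries. In a bulk library a change in some cells and a smaller change in all cells cannot be told apart. By this rule 1724 of 29448 regions (5.85%) were higher in shJunB and 1086 (3.69%) were lower. An island was present in both libraries in 24111 regions (78.6%). Among the 23945 of those with enough reads, 829 (3.46%) were higher and 570 (2.38%) lower, 81.1% lay within 1.5-fold, and the log2 ratio had a median of 0.00 and an SD over regions of 0.50.

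The islands called in 1 library only were small. There were 2857 regions with an island in shJunB only, with a median of 79.0 normalised reads, and 3704 with an island in scramble only, with a median of 65.9. The first set covered 11.5 Mb and the second 10.4 Mb, out of 238 Mb of islands in shJunB and 220 Mb in scramble. An island missing from a file means that the authors' caller did not pass it, which is no measurement of 0. For counts past 2-fold, shares, medians and plotted ratios, a region or gene with no island in 1 library was filled in with a low value of that library. This value was the 5th percentile over the islands of that library (56.5 normalised reads in shJunB and 51.0 in scramble for the untreated pair). No fold is printed against it.

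The regions past 2-fold also differed in how much of them was called. In the 829 higher regions the islands covered a median of 100% of the region in shJunB and 41.5% in scramble. In the 570 lower regions they covered 50.0% in shJunB and 100% in scramble. Divided by the called length, the median log2 ratio was 0.11 for the higher regions, whose summed reads had a median of 1.30, and -0.27 for the lower ones, whose summed reads had a median of -1.21. Reads outside called islands are not in the files, so the part of the ratio that comes from the island edges was not tested. In the 12870 regions where islands covered at least 80% of the length in both libraries, 14 (0.109%) were higher and 36 (0.28%) lower.

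**Figure D1:**
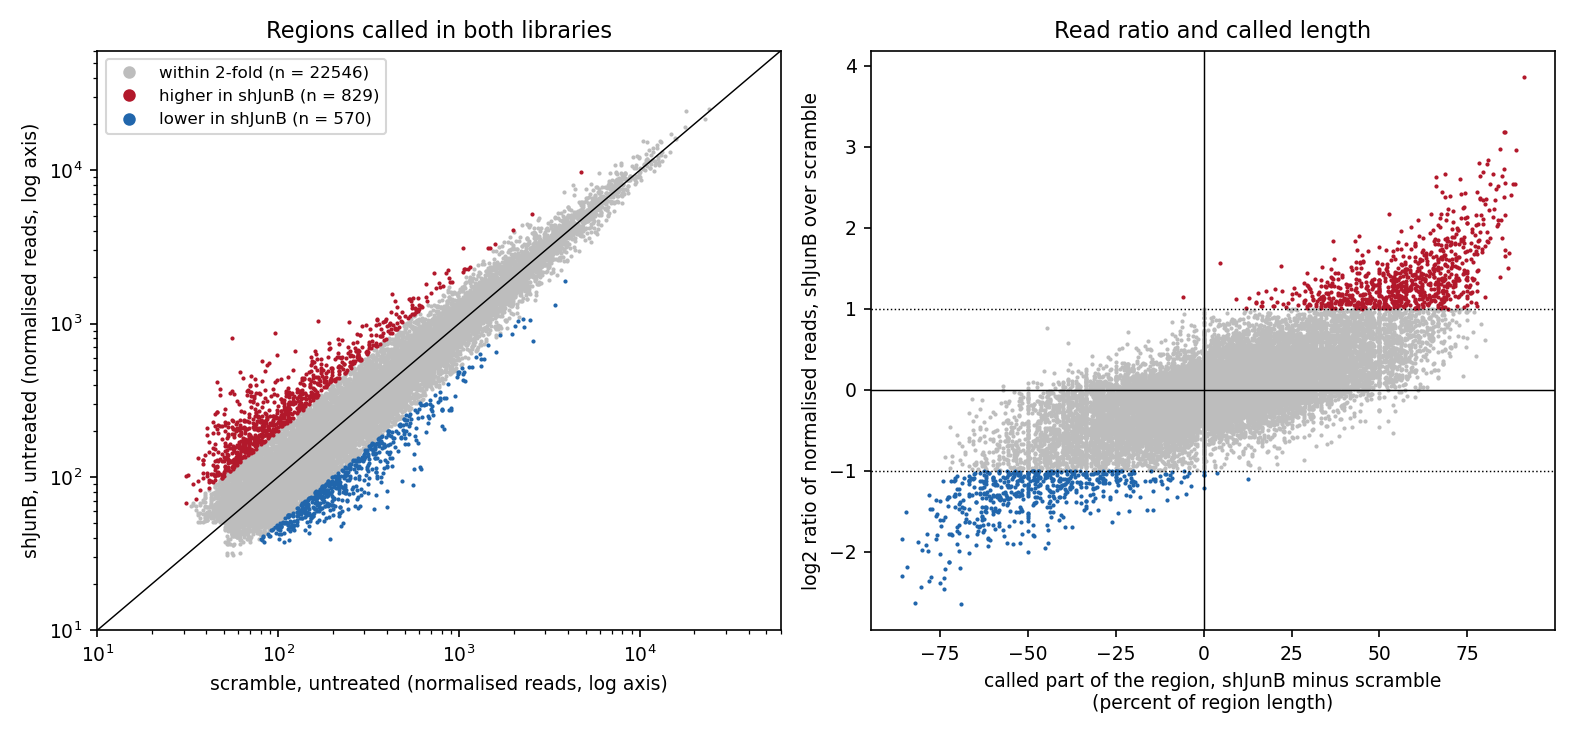
Left, normalised H3K27ac reads of each region called in both libraries, shJunB on the vertical and scramble on the horizontal log axis; 829 regions lie above 2-fold and 570 below. Right, the log2 read ratio of the same regions against the difference in the called part of the region (percent of its length, shJunB minus scramble); regions past 2-fold lie mostly where the called part differs.

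Among those 50 regions with nearly complete islands in both libraries, the highest ratio lay in Il1r1, the receptor of interleukin-1, at chr1:40239601-40244000 (mm10), with 460.1 normalised reads in shJunB and 155.2 in scramble, a 2.96-fold difference (exact 95% interval of the fold from counting error 2.46 to 3.59). A second region of Il1r1, chr1:40221801-40238000, had 1224.0 reads in shJunB and 579.3 in scramble. Both of these Il1r1 regions were among the 50 for being past 2-fold, and any other region of the gene is not given here. The long region at Gnat3, which neighbours the scavenger receptor gene Cd36, had 4043.6 reads in shJunB and 1984.5 in scramble.

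Lower in shJunB were regions in Rab27a, a GTPase of vesicle secretion (207.0 reads in shJunB and 578.2 in scramble), and in the keratin gene Krt80 (1321.8 in shJunB and 3403.5 in scramble). A region 23.6 kb from the scavenger receptor gene Cd163 had 327.4 reads in shJunB and 823.8 in scramble. Pecam1, which encodes the adhesion protein CD31, had 1069.7 reads in shJunB and 2250.2 in scramble over 29000 bp. Regions of Fpr2, a formyl peptide receptor (135.5 in shJunB and 298.7 in scramble), and of Marcksl1, a regulator of actin (961.5 in shJunB and 2038.7 in scramble), lay on the same side. The genes in this paragraph and the one before were picked from the 50 regions after their values were seen.

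Position and level both went with the share of regions past 2-fold. Over an annotated transcript start 1.49% of 9787 tested regions were higher and 1.44% lower. Within a protein-coding gene or 1 kb either side but over no start, 7.14% of 12457 were higher and 5.17% lower. Away from protein-coding genes 9.56% of 7204 were higher and 4.18% lower. These shares include regions called in 1 library only. Over regions called in both libraries, 1.05% were higher and 1.04% lower over starts, 4.28% and 3.39% in other gene regions, and 6.39% and 3.01% away from genes. Start regions were also the strongest, with a median of 508 normalised reads in scramble, against 231 for other gene regions and 172 away from genes. Among regions called in both libraries, 7.94% of those with a geometric mean of 50 to 100 reads were past 2-fold, 12.5% of those with 100 to 200, 1.16% of those with 1000 to 3000, and 0.237% of those with 3000 or more. The parts of position and of level in these shares were not tested apart.

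**Figure D2:**
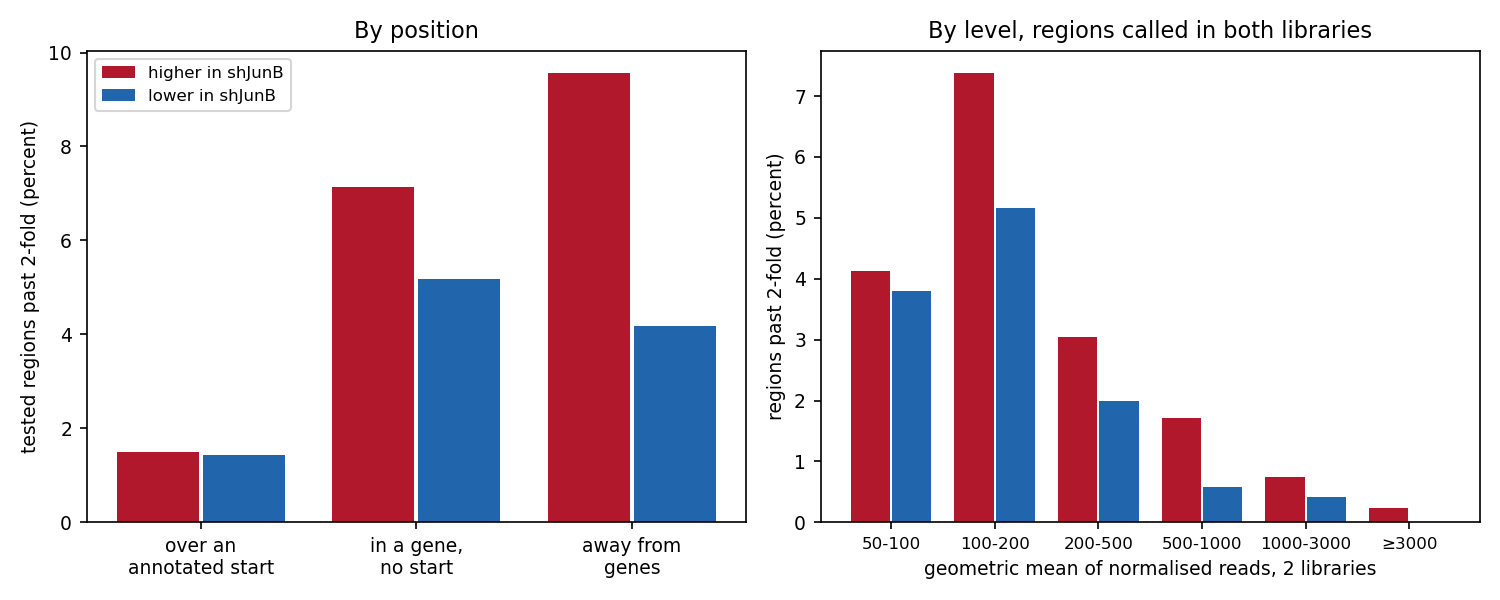
Percent of tested regions at least 2-fold higher (red) or lower (blue) in shJunB, by position against protein-coding genes (left) and, for regions called in both libraries, by level (right). Over annotated starts both shares lie below 1.5%, and the shares are smallest at the highest level.

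The AP-1 genes themselves kept their H3K27ac within 1.5-fold. A gene's value is the sum of reads over all regions that touch its span or 1 kb either side, and by the 2-fold rule 153 of 13407 tested protein-coding genes (1.14%) were higher in shJunB and 257 (1.92%) lower, with a median log2 ratio of -0.02. A region with no island in a library adds no reads to such a sum, although reads may be there. Of the 153 higher genes 89 had a region called in shJunB only, and of the 257 lower genes 173 had one called in scramble only. Over regions called in both libraries, 93 of 13039 genes (0.713%) were higher and 114 (0.874%) lower, and every gene fold below is over such regions. Of the 12 AP-1 genes 0 were past 2-fold, and their folds ran from 0.696 to 1.36. Junb had 6223.4 normalised reads in shJunB and 6129.9 in scramble, a log2 ratio of 0.02, in a region of 27000 bp that it shares with Hook2, Prdx2 and Rnaseh2a. Jun and Jund, the other Jun proteins, had 2351.1 and 1758.4 reads in shJunB, against 2125.8 and 1679.4 in scramble. Fos, the usual partner, had 7210.3 in shJunB and 8037.8 in scramble. Fosb had 540.0 in shJunB and 500.6 in scramble, and Fosl1, which shares a region with 3 genes, had 1267.3 in shJunB and 1040.6 in scramble. All of these lay close to the diagonal, with log2 ratios between -0.16 and 0.28.

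Atf3, a stress-induced factor that dimerises with Jun proteins, had the highest ratio in the family and the most reads, 24458.1 in shJunB and 17949.5 in scramble, 1.36-fold (1.34 to 1.39), over a region of 145600 bp shared with Fam71a and Nenf. On the lower side were Jdp2, a repressor that dimerises with Jun (1870.3 in shJunB and 2687.1 in scramble over the 3 regions called in both), Batf2 (612.5 in shJunB and 822.7 in scramble), Fosl2 (1737.7 in shJunB and 2207.7 in scramble) and Batf (1578.7 in shJunB and 1925.0 in scramble). Batf3, whose protein pairs with Jun proteins at interferon and AP-1 elements, had 5182.0 reads in shJunB and 5287.0 in scramble. The counting intervals of Atf3, Jdp2, Batf2, Fosl2, Batf, Jun, Fos and Fosl1 exclude 1, but they cover counting error only, and without a second library the variation between cultures is unknown.

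Proteins that bind related elements or act upstream of AP-1 also had 0 genes past 2-fold. Among 10 MAF and CNC partners, the extremes were Bach2, a repressor known from lymphocytes (9743.9 reads in shJunB and 6853.7 in scramble over the 9 of its 18 regions called in both, 1.42-fold), and Nfe2 (349.0 in shJunB and 514.5 in scramble). Bach2 was called over 220800 bp in shJunB and 122000 bp in scramble, and per called length the log2 ratio of all its reads was -0.22. Among 7 C/EBP genes, Cebpd had 1497.8 reads in shJunB and 2028.1 in scramble, and Cebpa, a myeloid lineage factor, 2273.9 in shJunB and 2001.5 in scramble. Among 24 genes of MAP kinase signalling, which phosphorylates AP-1 proteins, the phosphatase gene Dusp4 had 2501.6 in shJunB and 1611.4 in scramble. The kinase gene Map2k1 had 1383.0 in shJunB and 1913.3 in scramble in sum, and 1783.6 in scramble over its 4 regions called in both.

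Over all 21 gene lists, 359 of 379 distinct genes were measured, of which 2 were higher and 9 lower by the 2-fold rule. Of these, Dcstamp, Iigp1, H2-DMb1 and H2-Ob did not pass over regions called in both libraries. List medians lay between -0.32 and 0.11 on the log2 scale, beside -0.02 over all genes, and 13 lists had no member past 2-fold. The lists were chosen with earlier results of these data known, and a list's count near 1.14% higher and 1.92% lower says nothing particular about it.

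Among inflammatory genes, Ccl2 and Ccl7, which encode monocyte chemoattractants and share 1 region of 19600 bp, had 529.7 normalised reads in shJunB and 1323.3 in scramble, 2.50-fold lower (2.26 to 2.76). Called length was 11600 bp in shJunB and 19600 bp in scramble. With IFNγ, the same genes had 13615.4 reads in shJunB and 12693.1 in scramble. Cx3cr1, the fractalkine receptor, had 1017.0 in shJunB and 2107.8 in scramble, 2.07-fold lower (1.92 to 2.23). The collagenase gene Mmp13 was on the other side, with 106.3 reads in shJunB and 50.0 in scramble, 2.13-fold, though its log2 ratio per called length was -0.57. Of 20 macrophage activation genes linked to JunB 1 was higher and 1 lower, and of 17 chemokine and receptor genes 0 and 2. None of 24 NF-kB and inflammatory genes passed, the extremes being Csf3, the gene of the growth factor G-CSF (719.7 in shJunB and 1187.3 in scramble), and the cytokine subunit gene Ebi3 (1157.2 in shJunB and 1613.5 in scramble). None of 18 Toll-like receptor and adaptor genes passed either, and the largest ratios were those of Tlr5, the flagellin receptor (789.3 in shJunB and 1414.8 in scramble), and of Myd88 (1235.3 in shJunB and 1563.6 in scramble).

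By summed reads, interferon and antigen presentation genes held 4 of the 9 lower genes of all lists and none of the 2 higher ones. These lists measured 21, 15, 19 and 11 genes, among 359 distinct genes measured in all lists. Of all tested protein-coding genes 1.92% were lower. Of the 4, only Stat4 passed over regions called in both libraries. Of 21 interferon-stimulated antiviral genes 0 passed and 19 had a ratio below 1, beside 52.9% of all tested genes, among them Ifi44 (137.4 reads in shJunB and 221.1 in scramble) and the exonuclease gene Isg20 (691.5 in shJunB and 937.5 in scramble). Of 15 GBP and IRG GTPase genes, 12 had a ratio below 1 and Iigp1 passed, with 55.5 reads in shJunB and 167.9 in scramble. Of 19 IRF, STAT and SOCS genes Stat4, a mediator of interleukin-12 signalling, passed, with 85.6 in shJunB and 304.0 in scramble in sum. Of 11 MHC class II genes 2 passed, H2-DMb1, a chain of the peptide loading factor H2-DM (114.8 in shJunB and 431.5 in scramble), and H2-Ob, a chain of its inhibitor H2-DO (202.3 in shJunB and 460.2 in scramble). Part of each of these 4 genes was called in scramble only, and over the regions with an island in both libraries Stat4 had 85.6 reads in shJunB and 233.8 in scramble, 2.73-fold lower (2.13 to 3.53), and Iigp1 55.5 in shJunB and 99.9 in scramble, 1.80-fold lower (1.29 to 2.54). H2-DMb1 had 114.8 reads in shJunB and 149.9 in scramble, and H2-Ob 202.3 in shJunB and 308.2 in scramble. In the IFNγ-treated pair the 4 genes had log2 ratios between 0.06 and 0.45, and the list medians were 0.06 for antiviral, 0.23 for GBP and IRG, 0.11 for IRF, STAT and SOCS and 0.14 for MHC class II genes, beside -0.04 over all genes. In the untreated pair these medians were -0.13 for antiviral, -0.32 for GBP and IRG, -0.09 for IRF, STAT and SOCS and -0.18 for MHC class II genes. GBP, IRG and MHC genes have near-identical copies, and how the authors' mapping split their reads makes these values uncertain.

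Among the other lists, Mgl2, a lectin of alternatively activated macrophages, was the single gene of 20 in its list past 2-fold, with 87.5 reads in shJunB and 191.3 in scramble. Dcstamp, which macrophages need to fuse into osteoclasts, was the single gene of 14 in its list, with 351.9 in shJunB and 80.8 in scramble in sum, and 150.5 in shJunB and 80.8 in scramble over the region called in both, 1.86-fold (1.41 to 2.48). None of 18 matrix and protease genes passed, although Mmp12, macrophage elastase (1501.5 in shJunB and 825.9 in scramble), came close to 2-fold. None of 19 lysosome and phagocytosis genes passed, and Cd36 was nearest, with 6011.7 in shJunB and 3105.9 in scramble, 1.94-fold (1.85 to 2.02), ahead of the lysosomal enzyme gene Hexa (5340.9 in shJunB and 4413.2 in scramble over the region called in both).

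No gene passed among 19 macrophage identity genes, 20 of glycolysis and hypoxia, 20 of the cell cycle and 18 housekeeping genes. The lysozyme genes Lyz1 and Lyz2, which share a region, had 3115.0 and 3207.2 reads in shJunB, against 4117.8 and 4215.6 in scramble. Egln3, a prolyl hydroxylase, had 210.7 in shJunB and 326.3 in scramble in sum, and 270.0 in scramble over its 2 regions called in both. Hif1a, of the same list, had 1075.3 in shJunB and 1274.4 in scramble. Cdk1, the mitotic kinase, had 478.9 in shJunB and 765.3 in scramble, and its inhibitor gene Cdkn1a 1412.2 in shJunB and 2207.7 in scramble. The housekeeping genes with the largest ratios were Rpl13a (2588.2 in shJunB and 3945.6 in scramble) and Tfrc (347.2 in shJunB and 481.5 in scramble), 1.52-fold and 1.39-fold lower, which gives the size of ratio seen in genes not chosen for a role here.

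**Figure D3:**
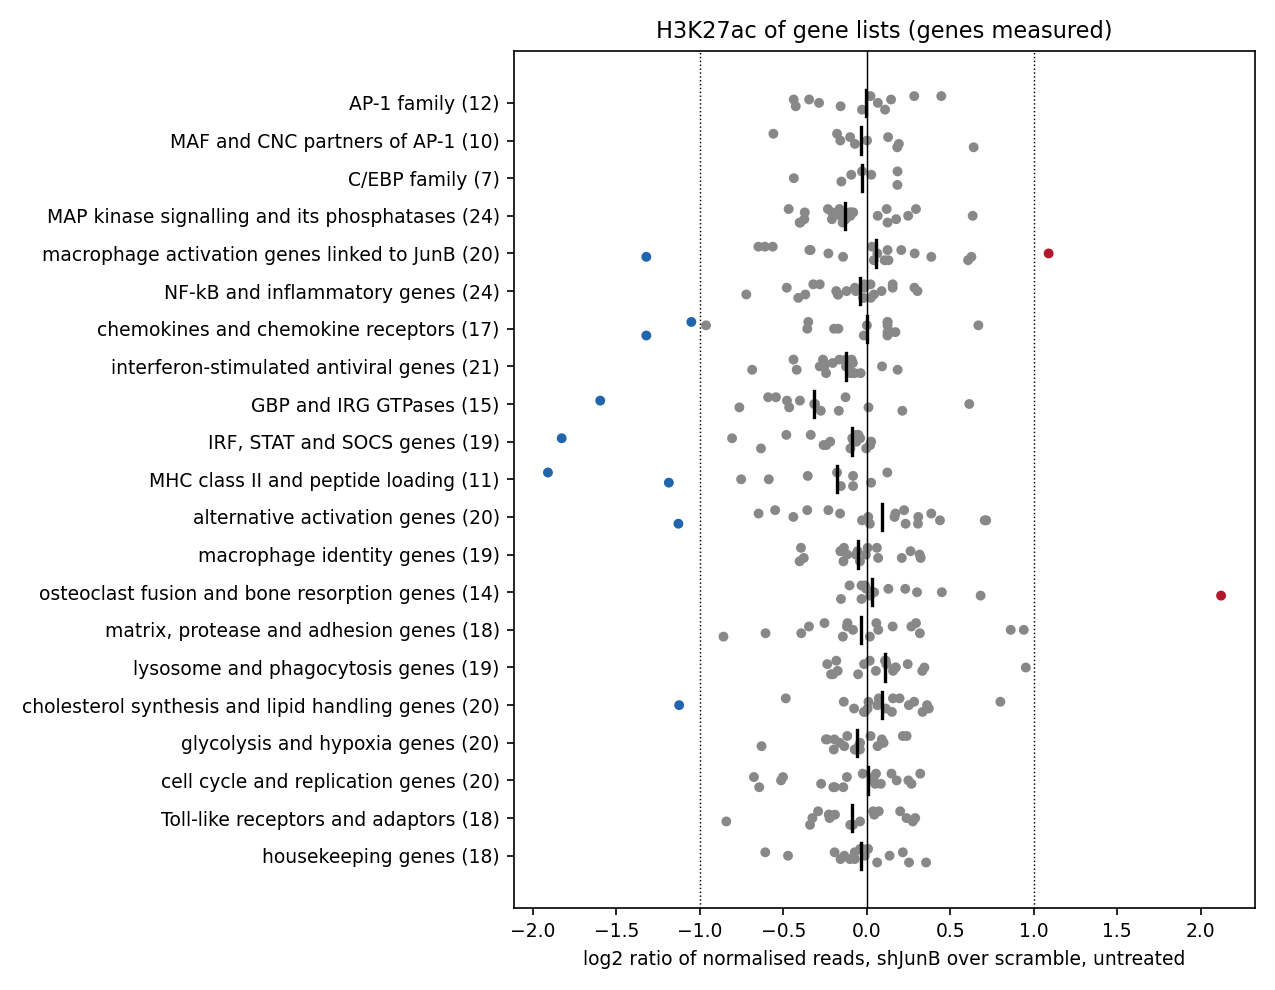
Log2 ratio of normalised reads (shJunB over scramble, untreated) for each measured member of 21 gene lists; each point is a gene, the black bar is the list median, dotted lines mark 2-fold, and members past it are red (higher) or blue (lower). The medians lie between -0.32 and 0.11, and all 12 AP-1 genes lie inside the dotted lines.

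The genes with the highest ratios of summed reads, among those with islands in both libraries and at least 100 reads in the higher one, were mostly genes with extra islands in shJunB, since 8 of the 10 had a region called in shJunB only. Over regions called in both libraries 5 of the 10 were past 2-fold. Nubpl, an assembly factor of respiratory complex I, had 1177.9 normalised reads in shJunB and 170.1 in scramble in sum. Its start region at chr12:52097201-52100000 had 200.4 in shJunB and 170.1 in scramble, 1.18-fold (0.955 to 1.46), and its other 8 regions were called in shJunB only. The same form held for Tpx2, a spindle assembly factor, with 587.1 reads in shJunB and 87.2 in scramble in sum, and 129.8 in shJunB and 87.2 in scramble over the 1 region called in both (chr2:152847201-152850600). Mgam, an intestinal maltase, had 1666.2 in shJunB and 258.3 in scramble, of which its region chr6:40727801-40738200 held 741.4 in shJunB and 258.3 in scramble. Dcstamp belongs to this set too, with its shared region at chr15:39745401-39749600.

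Of the remaining genes of the 10, Palm3 had 213.6 reads in shJunB and 44.6 in scramble, 4.78-fold (3.43 to 6.82), and Plekha6 329.3 in shJunB and 73.3 in scramble, 4.49-fold (3.46 to 5.90), each in a single region called in both. Over regions called in both, Armc4 had 363.2 in shJunB and 110.5 in scramble, and Tmem163 177.8 in shJunB and 76.5 in scramble. Zfp462 had 87.5 in shJunB and 92.5 in scramble there, and its 3 other regions were called in shJunB only. Fam167a had no region called in both, since its 255.9 reads in shJunB and its 40.4 in scramble lay in different regions. Plekha6, which encodes a pleckstrin-homology protein, was the single one of the 10 that stayed past 2-fold per called length, with a log2 ratio of 1.09. Palm3 shares its region with Il27ra, the interleukin-27 receptor.

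At the low end 7 of the 10 genes were past 2-fold over regions called in both. Plekhg5, a guanine nucleotide exchange factor, had 50.8 reads in shJunB and 412.4 in scramble in sum, and 50.8 in shJunB and 118.0 in scramble over its start region chr4:152086201-152090400, which was called in both, 2.32-fold lower (1.66 to 3.28). Ntrk2, the receptor of brain-derived neurotrophic factor, had 80.9 in shJunB and 518.7 in scramble, and its region chr13:58998801-59006800, called in both, had 80.9 in shJunB and 400.7 in scramble, 4.95-fold lower (3.91 to 6.34). Dync2li1, a dynein gene, had 90.3 in shJunB and 315.7 in scramble over its shared region, and Ip6k3, an inositol phosphate kinase, 71.5 in shJunB and 213.6 in scramble. Syt2, a synaptotagmin, had 89.4 in shJunB and 197.7 in scramble there. Cidea, a lipid droplet protein, had 48.9 in shJunB and 98.9 in scramble over its shared region, and the dynein gene Dnah12 67.7 in shJunB and 139.2 in scramble. The other 3 were within 2-fold there: Mnd1, a meiotic recombination factor, had 41.4 in shJunB and 61.6 in scramble, Rgs7bp 50.8 in shJunB and 90.3 in scramble, and Mindy4 129.8 in shJunB and 152.0 in scramble. All 10 had a region called in scramble only, and per called length their log2 ratios ran from -0.59 in Plekhg5 to 1.16 in Mnd1.

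**Figure D4:**
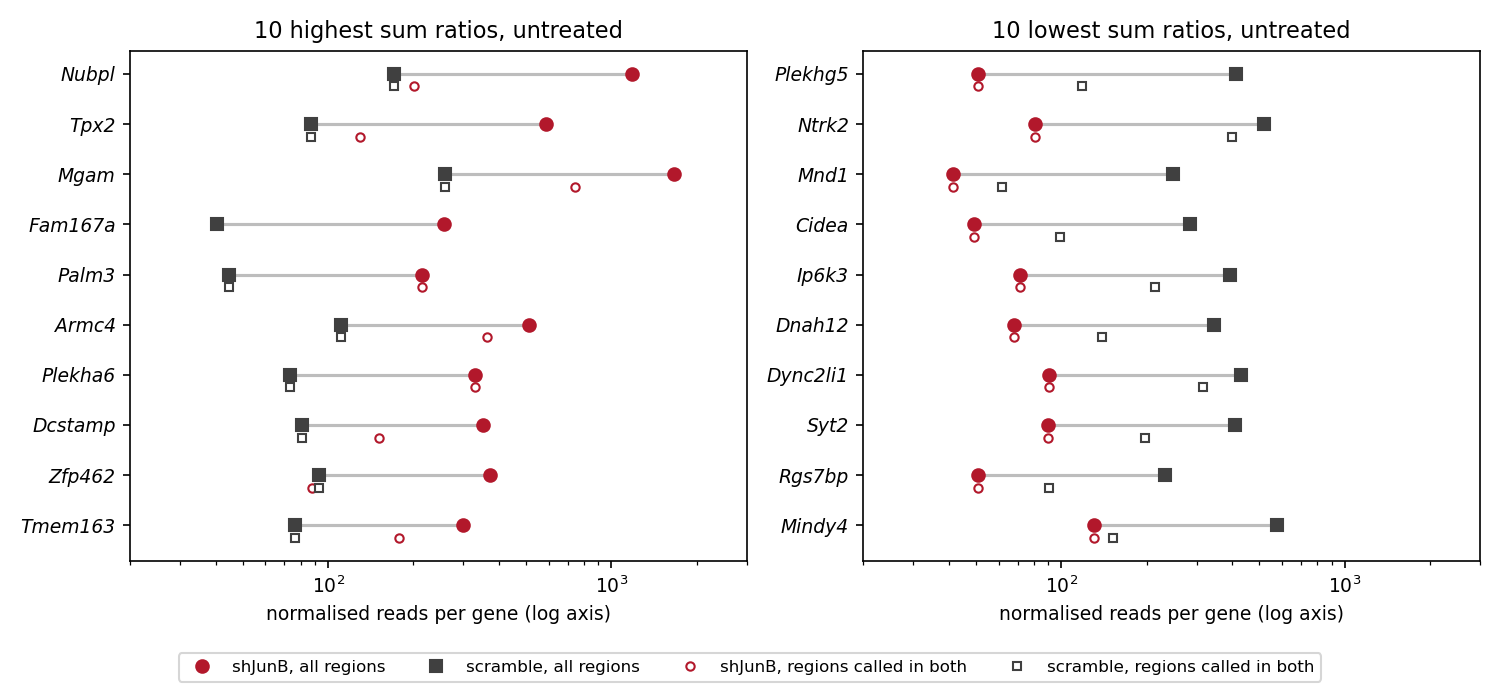
Normalised reads per gene (log axis) in untreated shJunB (red circles) and scramble (grey squares) for the 10 genes with the highest and the 10 with the lowest ratio of summed reads; filled marks sum all regions, open marks those called in both libraries, and with 1 library each there are no error bars. The open marks lie closer together than the filled ones in all but Palm3 and Plekha6, where they coincide, and Fam167a, which has none.

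Some genes had an island in a single library. The most reads in shJunB only were at Slc26a4, the anion exchanger pendrin (313.3 normalised reads), Ntn1, the guidance factor netrin-1 (255.9), Col26a1, a collagen (229.6), Bmpr1b, a BMP receptor (225.8), and Syt16 (223.9). In scramble only they were at Pde10a, a cyclic nucleotide phosphodiesterase (545.3), the phospholipase genes Plb1 (336.9) and Plbd1 (333.8), Rab44 (289.1) and Grxcr1 (282.7). None of these 10 genes was called in the other library, and no fold is given.

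Away from genes, the highest ratio among regions called in both libraries was at chr13:45187401-45216800, 173 kb from Mylip, a ubiquitin ligase of the LDL receptor, with 869.3 reads in shJunB and 95.7 in scramble, 9.09-fold (7.31 to 11.4). The next were chr15:62146201-62162800, 156 kb from Myc, with 482.6 in shJunB and 61.6 in scramble, and chr9:123271801-123283200, 11.0 kb from Tmem158, with 440.3 in shJunB and 63.8 in scramble. All 3 were called over 100% of their length in shJunB and 14.3% to 19.3% in scramble. The lowest were chr1:182918401-182931200, 21.8 kb from Susd4, with 115.7 in shJunB and 604.8 in scramble, chr19:27265001-27271200, 10.8 kb from the lipoprotein receptor gene Vldlr, with 71.5 in shJunB and 272.1 in scramble, and chr13:46977801-46986600, with 106.3 in shJunB and 379.5 in scramble. These were called over 25% to 38.7% of their length in shJunB and 100% in scramble.

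Promoters with the AP-1 motif made up a larger share of the genes higher in shJunB than of all tested genes. The motif TGANTCA, searched on both strands in the 250 bases before each start, was in 2217 of 32851 promoters (6.75%) and in 615 of 10782 tested genes with a promoter in the table (5.70%). It was in 21 of 112 genes higher in shJunB (18.8%, exact Clopper-Pearson 95% interval 12.0% to 27.2%) and in 14 of 201 genes lower (6.97%, 3.86% to 11.4%). With genes called over regions with an island in both libraries, it was in 13 of 70 higher genes (18.6%, 10.3% to 29.7%), 8 of 92 lower genes (8.70%, 3.83% to 16.4%) and 5.63% of 10508 tested genes. For genes whose start lay in a called region, the share was 20.7% of 58 higher genes and 5.52% of 9688 tested genes, and for genes whose start did not, 16.7% of 54 and 7.31% of 1094. The intervals take genes as independent, which neighbours sharing a region are not, and a motif match is a description of letters, not of binding. The difference between these shares was not tested. For comparison, the cAMP response element TGACGTCA was in 1.79% of higher genes and 3% of tested genes, the ETS motif GAGGAAGT in 2.68% and 2.90%, and the C/EBP motif TTGCGCAA in 0 of 112 higher genes (exact interval up to 3.24%) and 0.26% of tested genes.

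Taken by region and not by gene, 2.54% of 669 regions holding a promoter window with TGANTCA were higher in shJunB and 1.49% lower, against 1.38% and 1.42% of 9409 regions holding windows without it. The median log2 ratio was 0.00 in both. Of the genes whose promoters are printed above, Cldn4, a tight junction protein, had 1324.7 reads in shJunB and 547.4 in scramble in the region over its start. Vash2, a vasohibin, had 596.5 in shJunB and 236.0 in scramble there, and Sspn, sarcospan, 1033.0 in shJunB and 391.2 in scramble. The start region of F3, tissue factor, had 159.0 in shJunB and 69.1 in scramble, and that of Pde6b, a phosphodiesterase of rod cells, 2249.5 in shJunB and 871.6 in scramble. The Syt2 window lay in no called region. With IFNγ, log2 ratios of gene sums were 0.74 for Vash2, 0.56 for Pde6b, 0.52 for Cldn4 and -0.09 for F3. Sspn then had no island in shJunB and 59.0 reads in scramble. In untreated shCEBP-beta over the same scramble library, log2 ratios were 3.45 for Sspn, 1.11 for Cldn4 and 1.02 for Pde6b. Those of Vash2 and F3 were 0.96 and 0.80.

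The IFNγ-treated shJunB and scramble libraries share no sample with the untreated pair, and their reads were not used to choose the regions. Their islands did enter the merge that set the region bounds. The scramble library with IFNγ was the smallest of the 13, with 14.3 M reads, against 22.2 M for shJunB with IFNγ. Merged over this pair alone, 4344 regions were called in shJunB only and 2316 in scramble only. The part of depth in the values below was not tested. Of 1518 regions higher in the untreated pair when islands of the 4 libraries were merged (33302 regions), 1064 could be measured with IFNγ, and their median log2 ratio was 0.54 (binomial 95% interval of the median over regions 0.50 to 0.57), with 85.0% above 0. In that pair 22.5% of them were at least 2-fold higher and 1.69% lower, beside 4.69% and 3.29% of all regions. Of 1023 regions lower in the untreated pair 585 could be measured, with a median of -0.41 (-0.48 to -0.35) and 74.2% below 0. Of these, 18.1% were at least 2-fold lower and 2.74% higher. The median of all 25471 measured regions was 0.02. Per called length the medians were 0.15 and -0.29, beside -0.07 over all regions, with filled-in ratios kept where an IFNγ-treated library had no island. Islands were present in all 4 libraries in 566 of the higher and 301 of the lower regions. Regions are not replicates, and the interval covers the spread over regions only.

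**Figure D5:**
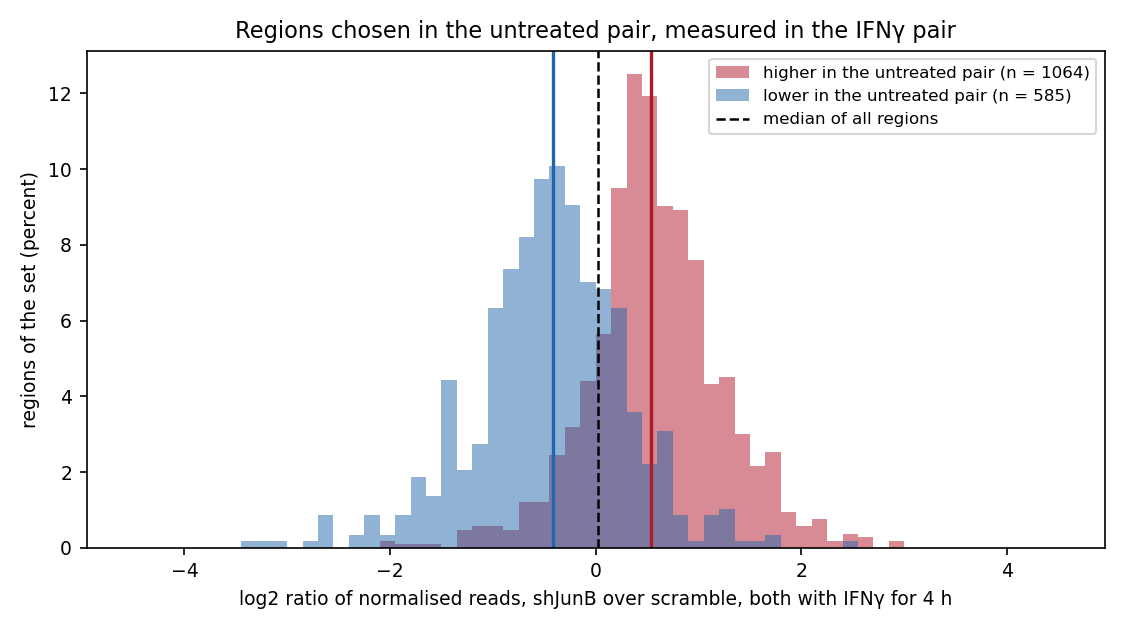
Distribution of the log2 ratio of shJunB over scramble, both with IFNγ for 4 h, in the 1064 regions higher (red) and the 585 regions lower (blue) in the untreated pair, in percent of each set; coloured lines mark the medians, 0.54 and -0.41, and the dashed line the median of all regions, 0.02.

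The same regions were followed in pairs that hold neither of the 2 untreated libraries. In shCEBP-beta over scramble, both with IFNγ, the regions higher in untreated shJunB had a median log2 ratio of 0.07 and those lower a median of 0.12, beside 0.01 over all regions. This pair shares its scramble library with the IFNγ-treated shJunB pair. In the cytokine experiment, IFNγ (100 ng/ml) for 4 h over untreated cells gave medians of -0.40 for the regions higher in shJunB and -0.31 for those lower, beside 0.09 over all, and IL-4 (10 ng/ml) for 4 h gave -0.53 for the higher and -0.50 for the lower regions, beside 0.05. Both sets were thus on the same side of 0 in response to each cytokine, unlike their opposite sides in the IFNγ-treated shJunB pair.

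Across both states edgeR's quasi-likelihood test, with state as a term, called 0 of 18547 regions higher and 0 lower at a Benjamini-Hochberg adjusted p of 0.05, and the smallest adjusted p was 0.147. At an unadjusted p under 0.05 it gave 2914 regions (15.7%), of which 1847 (9.96%) were higher in shJunB and 1067 (5.75%) lower. The fit has 1 residual degree of freedom per region. At the same adjusted threshold DESeq2 called 276 of 17108 regions higher (1.61%) and 97 lower (0.567%).

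The regions with the smallest p that were also past 2-fold in both states were led by chr6:89104001-89146400, 170 kb from the semaphorin receptor gene Plxna1, with 1599.6 reads in shJunB and 268.7 in scramble untreated, and 981.8 in shJunB and 130.3 in scramble with IFNγ (edgeR unadjusted p 9.13e-06, adjusted p 0.147). A neighbour at chr6:89016801-89070400 had 2606.0 in shJunB and 1170.5 in scramble untreated, and 2433.7 in shJunB and 927.0 in scramble with IFNγ. In Slc1a2, a glutamate transporter, chr2:102699401-102731200 had 1239.9 in shJunB and 215.6 in scramble untreated, and 649.1 in shJunB and 147.5 in scramble with IFNγ. The others on this side were chr4:72369601-72399400, 169 kb from the corepressor gene Tle1, and chr5:108372401-108416400 over Pde6b.

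On the lower side were regions over Gpd2, the mitochondrial glycerol phosphate dehydrogenase (chr2:57286001-57306800, 113.0 reads in shJunB and 308.0 in scramble untreated, 530.3 in shJunB and 1255.2 in scramble with IFNγ), Nek10 (chr14:14861401-14873600), Bst1, the surface enzyme CD157 (chr5:43836601-43858400, 278.7 in shJunB and 644.7 in scramble untreated, 194.4 in shJunB and 558.1 in scramble with IFNγ), and Tmprss4 with BC049352 (chr9:45191001-45211800). A region 11.7 kb from Svil, chr18:5131001-5152600, had 482.0 in shJunB and 1153.5 in scramble untreated, and 292.8 in shJunB and 761.0 in scramble with IFNγ. All 10 regions were chosen for lying past 2-fold in 1 direction in both states, so that direction is no result.

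Gene sums were compared over the 2 pairs as well. Of 153 genes higher in untreated shJunB 133 could be measured with IFNγ, and 22 (16.5%) were higher there and 0 lower. The background is 1.1% higher and 1.58% lower among all genes tested with IFNγ, and 0.837% and 1.44% among genes tested in both pairs. Of 257 lower genes 193 could be measured, and 53 (27.5%) were lower there and 2 higher. Higher in both were Nubpl, with 727.8 reads in shJunB and 217.7 in scramble under IFNγ, Tpx2 (1202.7 in shJunB and 463.6 in scramble), Slc1a2, Il27ra and Ntn1. Lower in both were Krt80, with 287.1 in shJunB and 1337.9 in scramble under IFNγ, Ptger3, a prostaglandin E2 receptor (not called in shJunB and 157.4 in scramble under IFNγ), the fructose transporter gene Slc2a5, the coagulation factor gene F7, Plekhg5, Ntrk2 and Rab44. Rasgrp1, an exchange factor for Ras, had 166.5 in shJunB and 476.2 in scramble untreated, and 369.2 in shJunB and 1060.0 in scramble with IFNγ. The genes of this paragraph were picked from the 75 after their values were seen.

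Untreated shCEBP-beta macrophages, set against the same scramble library, had 146 genes higher (1.08%) and 65 lower (0.481%). Because that library is shared, the comparisons are not independent, and values are given side by side only. All 10 genes with the highest ratios of summed reads, and all 5 named above as called in shJunB only, were also higher in shCEBP-beta by the same rule. Of the 10 genes with the lowest ratios 3 were also lower by that rule in shCEBP-beta (Plekhg5, Mnd1 and Ip6k3), and of the 5 called in scramble only 1 (Grxcr1). Palm3 had a log2 ratio of summed reads of 2.26 in shJunB and 2.01 in shCEBP-beta, Plekha6 2.17 in shJunB and 1.59 in shCEBP-beta, and Ccl2 -1.32 in shJunB and -0.38 in shCEBP-beta. The 10 highest genes and the 5 called in shJunB only are thus not shown to be particular to shJunB. The overlap over all higher genes is not given here. Where both ratios are alike, an effect of the knockdowns and a deviating value of the shared scramble library cannot be told apart.

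Markers of other cell types were called in part. All 15 macrophage markers were measured and 0 were past 2-fold, with 82400 normalised reads in shJunB and 85500 in scramble in sum. No NK cell (of 5) or mast cell and basophil marker (of 6) had an island in either library. Regions were present at 2 of 7 T cell markers (Cd3e, Cd3g and Cd8a not called), 4 of 6 B cell markers (Pax5 and Ebf1 not called), 6 of 7 dendritic cell, 3 of 7 neutrophil (Ly6g and S100a9 not called), 1 of 8 fibroblast (Col1a1, Col1a2 and Pdgfra not called), 3 of 5 endothelial (Tek and Emcn not called), 2 of 5 epithelial (Epcam not called) and 3 of 6 erythroid and megakaryocyte markers. The B cell sum was 5320 in shJunB and 4840 in scramble, and the endothelial sum was 3960 in shJunB and 5470 in scramble, where Pecam1 had 1403.7 in shJunB and 2858.2 in scramble. T cell, dendritic, neutrophil, fibroblast, epithelial and erythroid sums were 9560, 8130, 4180, 10300, 182 and 2190 in shJunB, against 9410, 7610, 4910, 11400, 335 and 2430 in scramble. The part of other cells in the differences above was not tested.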

How the data were processed

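H3K27ac ChIP-seq of 13 mouse libraries, 1 per condition, was deposited as 1 list of enriched islands per library. Reads were aligned with Bowtie2 2.2.6 and islands called with SICER 1.1, per the submitters' processing notes, which name the builds mm10 and GRCm38. The deposited counts are raw ChIP and control reads per island, not normalised. The deposited p-value and FDR columns and the deposited fold ratio come from the authors' comparison with a control library. Only islands at FDR up to 0.01 are listed. Total reads per library were worked out from that ratio, as the smallest whole-number totals that fit all 13 libraries. A multiple of these totals would fit too, and would lower the percent of reads in islands.

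Islands of the shJunB and scramble libraries were merged (1 bp of overlap), reads summed and divided by median-of-ratios size factors, and a region or gene was called at 2-fold and 50 normalised reads in the higher library. Genes came from RefSeq GRCm38.p6, which lists 21883 protein-coding genes: 13604 touched a region, 48.9% of them one that another gene touched too. Gene folds are over regions with an island in both libraries. Fold intervals are exact (binomial, given the summed reads of the pair). Each group had 1 library, so intervals cover counting error only. Reads carry no molecular identifiers that would tell copies of 1 fragment apart, so the intervals may be too narrow even for that. edgeR 4.0.16 and DESeq2 1.42.0 (R 4.3.3) were run on the raw counts of 4 libraries, and Python 3.11.15 for the rest. Both the 2-fold rule and the edgeR fit were tested on simulated data. Genes named are all AP-1 genes, up to 4 members past 2-fold or else the 2 most extreme of each other list, the 10 highest and lowest genes, the 5 strongest called in 1 library only, 3 regions each way away from genes, and 5 regions each way by edgeR p. A few genes that this rule names are not reported here. Members and lists were chosen with earlier results of these data known. Alternatives changed the scaling, background, called length, read minimum, island FDR, merging and gene window.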

Additional observations from a re-analysis of the deposited data

Results flagged for a closer look

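By the 2-fold rule on summed reads, Bcl11a and Glis1 were lower in shJunB without cytokine and higher with IFNγ, so the pairs point in opposite directions, and this difference was not tested. Bcl11a, a zinc finger repressor, had 148.6 normalised reads in shJunB and 297.6 in scramble untreated, and 431.8 in shJunB and 183.2 in scramble with IFNγ. Glis1, a zinc finger factor, had no island in shJunB untreated (a sum of 0) and 159.4 reads in scramble, and with IFNγ 100.0 in shJunB and 41.8 in scramble. With 1 library a condition, the spread of these values is unknown.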

How the results depend on the processing

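Scaling by recovered library totals or by reads in islands, and merging islands over 13 libraries, kept the region and gene counts within 1.5 times. With control reads subtracted, 1909 regions and 410 genes were lower. With islands required in both libraries, 829 regions were higher and 570 lower, and 93 genes were higher and 114 lower. Per kb of called length, 942 regions were higher and 719 lower, and 71 genes were higher and 129 lower. These counts hold 895 higher and 516 lower regions called in 1 library only, which kept their filled-in ratio. They also hold 30 higher and 48 lower genes of that kind. Most of the regions counted were thus not measured per kb. With at least 200 reads, 723 regions were higher and 406 lower, and 101 genes were higher and 170 lower. In regions called over at least 80% of their length in both libraries, an alternative added after seeing the data, 14 were higher and 36 lower. Islands called in shJunB only numbered 4364 when an island had to be overlapped over 50% of its length, which takes islands and not merged regions as the unit, and regions in scramble only numbered 2354 at an FDR of 1e-10 or less. In the IFNγ-treated pair the median of the higher regions was 0.49 in regions called in all 4 libraries, 0.15 per kb of called length and 0.50 with recovered totals, and that of the lower regions was -0.29 per kb. DESeq2 called 276 regions higher and 97 lower over both states, where edgeR called 0 and 0 with its own or DESeq2's size factors, with 6 libraries, with a filter of 200 reads and with no term for state. Of 105 list medians under other settings 103 stayed inside their interval, and the other two were -0.085 for antiviral genes with recovered totals and -0.045 for osteoclast genes per kb.

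Over regions called in both libraries, 18 of 28 named genes past 2-fold stayed past it, and Zfp462 changed sign (-0.080). Of 29 named genes past 2-fold and called in both libraries, 1 was still past it per kb of called length, and 10 changed sign there: Mmp13 (-0.57), Nubpl (-1.64), Tpx2 (-1.08), Mgam (-1.24), Fam167a (-0.22) and Zfp462 (-0.45) went below 0, and Iigp1 (0.67), H2-Ob (0.63), Mnd1 (1.16) and Mindy4 (0.92) above it. The cause was not tested beyond the called lengths given above. Under the other settings run on single genes 0 changed sign. The edgeR fit takes state as a term, so it compares shJunB with scramble within each state, with 1 residual degree of freedom. The labels give no replicate numbers for a further pairing.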
